A study of Mus musculus with 12 samples.

Results

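A set of 43 genes that build ribosomes or belong to the nucleolus was followed through bone marrow progenitors with a KDM6B transgene, with Tet2 deletion, with both lesions or with neither. The members were chosen by name, as the rows of the deposited expression table that carry 1 of 43 gene symbols. All 43 were found among the 15366 listed genes. By role they fall into 5 genes of the RNA polymerase I machinery, 3 of the box C/D and 4 of the box H/ACA small nucleolar ribonucleoprotein (snoRNP) cores, 15 of small subunit assembly, 10 of large subunit assembly and 6 general nucleolar proteins.

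The RNA came from untreated C57BL/6 mice, as poly(A) RNA of bone marrow LSK cells, the lineage-negative, Sca-1-positive, Kit-positive fraction that holds blood stem cells and multipotent progenitors. Each of 4 genotype groups had 3 libraries. The double lesion carried human KDM6B under Vav control together with Vav Cre and homozygous floxed Tet2. The KDM6B OE group carried the Vav human KDM6B transgene, and its label names no Cre. The Tet2 KO group carried Vav Cre and homozygous floxed Tet2. The control carried Vav Cre alone. Vav sequences drive expression throughout blood cells, so neither lesion was limited to LSK cells. KDM6B is a histone H3 demethylase acting on the repressive mark at lysine 27, and TET2 oxidises methylated cytosine. The labels give neither age nor sex. Whether replicate libraries stem from different mice is not stated there, and the p-values then reflect only variation among the libraries, some of it possibly technical.

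Ribosome assembly starts in the nucleolus, where RNA polymerase I copies the ribosomal DNA into a long precursor RNA. Box C/D snoRNPs add methyl groups to this precursor and box H/ACA snoRNPs convert uridines to pseudouridines, while assembly factors fold and cut it into the small and large subunits. The same H/ACA proteins also bind the RNA of telomerase. Blood stem cells are known to make protein at a low rate, and dividing progenitors to make many ribosomes.

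Promoters are shown for 4 of the 5 members that passed the test below, and for a pair that holds the E-box, the core site of MYC and related factors. RefSeq sequence of the build GRCm38.p6 was at hand for 39 members (there was no entry for Npm1, Fbl, Rrp12 and Bop1), in windows of 250 bases before to 50 after the start (300 bases). Capitals mark 3 motifs searched on both strands, namely the E-box CACGTG, the CCAAT box (CCAAT or ATTGG) and the GC box (GGGCGG or CCGCCC). Matches may overlap, as a CCAAT and an ATTGG do in Nhp2.
Nhp2, chr11:51619523-51619822, plus strand: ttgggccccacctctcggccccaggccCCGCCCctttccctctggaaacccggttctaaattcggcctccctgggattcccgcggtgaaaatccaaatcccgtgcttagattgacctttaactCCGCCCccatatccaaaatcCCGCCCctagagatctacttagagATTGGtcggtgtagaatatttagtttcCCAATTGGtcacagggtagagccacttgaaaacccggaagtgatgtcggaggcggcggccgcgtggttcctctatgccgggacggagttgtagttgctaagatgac
Nop10, chr2:112261676-112261975, plus strand: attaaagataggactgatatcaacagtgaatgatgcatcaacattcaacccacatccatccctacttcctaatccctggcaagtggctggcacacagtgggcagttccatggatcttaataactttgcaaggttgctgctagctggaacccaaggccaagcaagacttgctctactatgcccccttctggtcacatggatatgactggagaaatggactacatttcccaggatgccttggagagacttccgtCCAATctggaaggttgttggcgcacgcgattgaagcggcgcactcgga
Wdr3, chr3:100162358-100162657, minus strand: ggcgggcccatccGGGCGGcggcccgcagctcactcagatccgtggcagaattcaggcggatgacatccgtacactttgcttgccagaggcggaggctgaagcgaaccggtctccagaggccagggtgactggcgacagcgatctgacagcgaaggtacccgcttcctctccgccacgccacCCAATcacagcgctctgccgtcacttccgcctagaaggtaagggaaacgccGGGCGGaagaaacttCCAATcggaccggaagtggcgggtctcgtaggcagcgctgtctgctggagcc
Ncl, chr1:86359406-86359705, minus strand: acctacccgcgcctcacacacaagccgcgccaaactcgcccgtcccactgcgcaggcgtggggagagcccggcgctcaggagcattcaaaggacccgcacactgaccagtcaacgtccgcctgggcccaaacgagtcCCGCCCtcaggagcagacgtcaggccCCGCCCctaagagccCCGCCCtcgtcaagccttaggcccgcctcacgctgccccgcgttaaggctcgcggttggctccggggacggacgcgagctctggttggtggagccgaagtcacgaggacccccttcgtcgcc
Rrn3, chr16:13780449-13780748, plus strand: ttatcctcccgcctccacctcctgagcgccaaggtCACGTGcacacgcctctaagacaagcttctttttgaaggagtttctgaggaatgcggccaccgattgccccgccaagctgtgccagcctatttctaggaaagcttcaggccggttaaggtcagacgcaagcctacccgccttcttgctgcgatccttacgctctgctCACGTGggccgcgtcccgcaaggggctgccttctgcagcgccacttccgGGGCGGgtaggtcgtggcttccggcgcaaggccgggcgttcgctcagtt
Utp20, chr10:88826765-88827064, minus strand: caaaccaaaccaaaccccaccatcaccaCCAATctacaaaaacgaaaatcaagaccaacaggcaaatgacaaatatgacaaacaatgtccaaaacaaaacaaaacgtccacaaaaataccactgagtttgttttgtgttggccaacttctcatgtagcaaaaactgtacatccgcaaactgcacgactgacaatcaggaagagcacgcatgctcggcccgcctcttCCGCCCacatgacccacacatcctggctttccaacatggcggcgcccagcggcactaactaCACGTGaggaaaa
The Nhp2 window held CCAAT and GC boxes, the Nop10 window a single CCAAT box, the Wdr3 window both kinds and the Ncl window GC boxes without a CCAAT box. An E-box stood in none of these 4 windows. It was present in 9 of the 39 members, namely Grwd1, Ltv1, Mybbp1a, Nop2, Pes1, Rrn3, Tsr1, Utp20 and Wdr43. That is 23.1% of members, against 11.9% of the 9906 tested genes with a promoter entry. The CCAAT box stood in 12 members (30.8%, against 42.7% of tested genes) and the GC box in 28 (71.8%, against 67.7%). These matches describe letters in the window and show no binding.

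Depth and the labels were read first. The 12 libraries held 21935022 to 26263370 reads on listed genes, and 1 read was worth 0.0373 to 0.0463 CPM (the read count over the authors' scaled library size). The least covered member value rested on 198 reads. Tet2 was at 24.1 to 37.2 CPM in the 6 floxed libraries, against 64.9 to 97.1 CPM in the 6 others, with exons outside the floxed part counted. Mouse Kdm6b was at 7.79 to 12.5 CPM in the 6 transgenic libraries, against 5.46 to 7.91 CPM in the 6 others, and transcripts of the human transgene have no row of their own. Both genes of the LSK gate, Kit and Ly6a (Sca-1), were present throughout. The spread between libraries was widest in the control, with a median SD of 0.15 in the double lesion, 0.15 in KDM6B OE, 0.21 in Tet2 KO and 0.28 in Vav Cre on the log2 scale. In bulk RNA, fewer cells of a type and less RNA per cell cannot be told apart.

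All members were well expressed, and all 43 passed the filter of more than 1 CPM in at least 3 libraries. Over the 12 libraries Ncl averaged 1218 CPM, Npm1 769 CPM and Nop56 723 CPM, while Rrp12 averaged 24.3 CPM. Per kilobase of coding sequence, a rough scale for setting levels of different genes side by side, Nop10 stood highest at 1481 CPM per kb. Npm1 followed at 877, Ncl at 574, Nop56 at 415 and Nhp2 at 403 CPM per kb. At the low end were Heatr1 at 10.9, Rrp12 at 6.26 and Utp20 at 5.07 CPM per kb. Nop10 has a coding length of 192 bases and Utp20 one of 8367. Untranslated parts are not counted in this scale, so the ranks of genes with short coding parts are uncertain. The summed level of the members was 7334 to 7900 CPM in the double lesion, 7570 to 8510 CPM in KDM6B OE, 7407 to 8211 CPM in Tet2 KO and 7802 to 9539 CPM in Vav Cre. The ranges of all 4 groups overlapped.

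**Figure D1:**
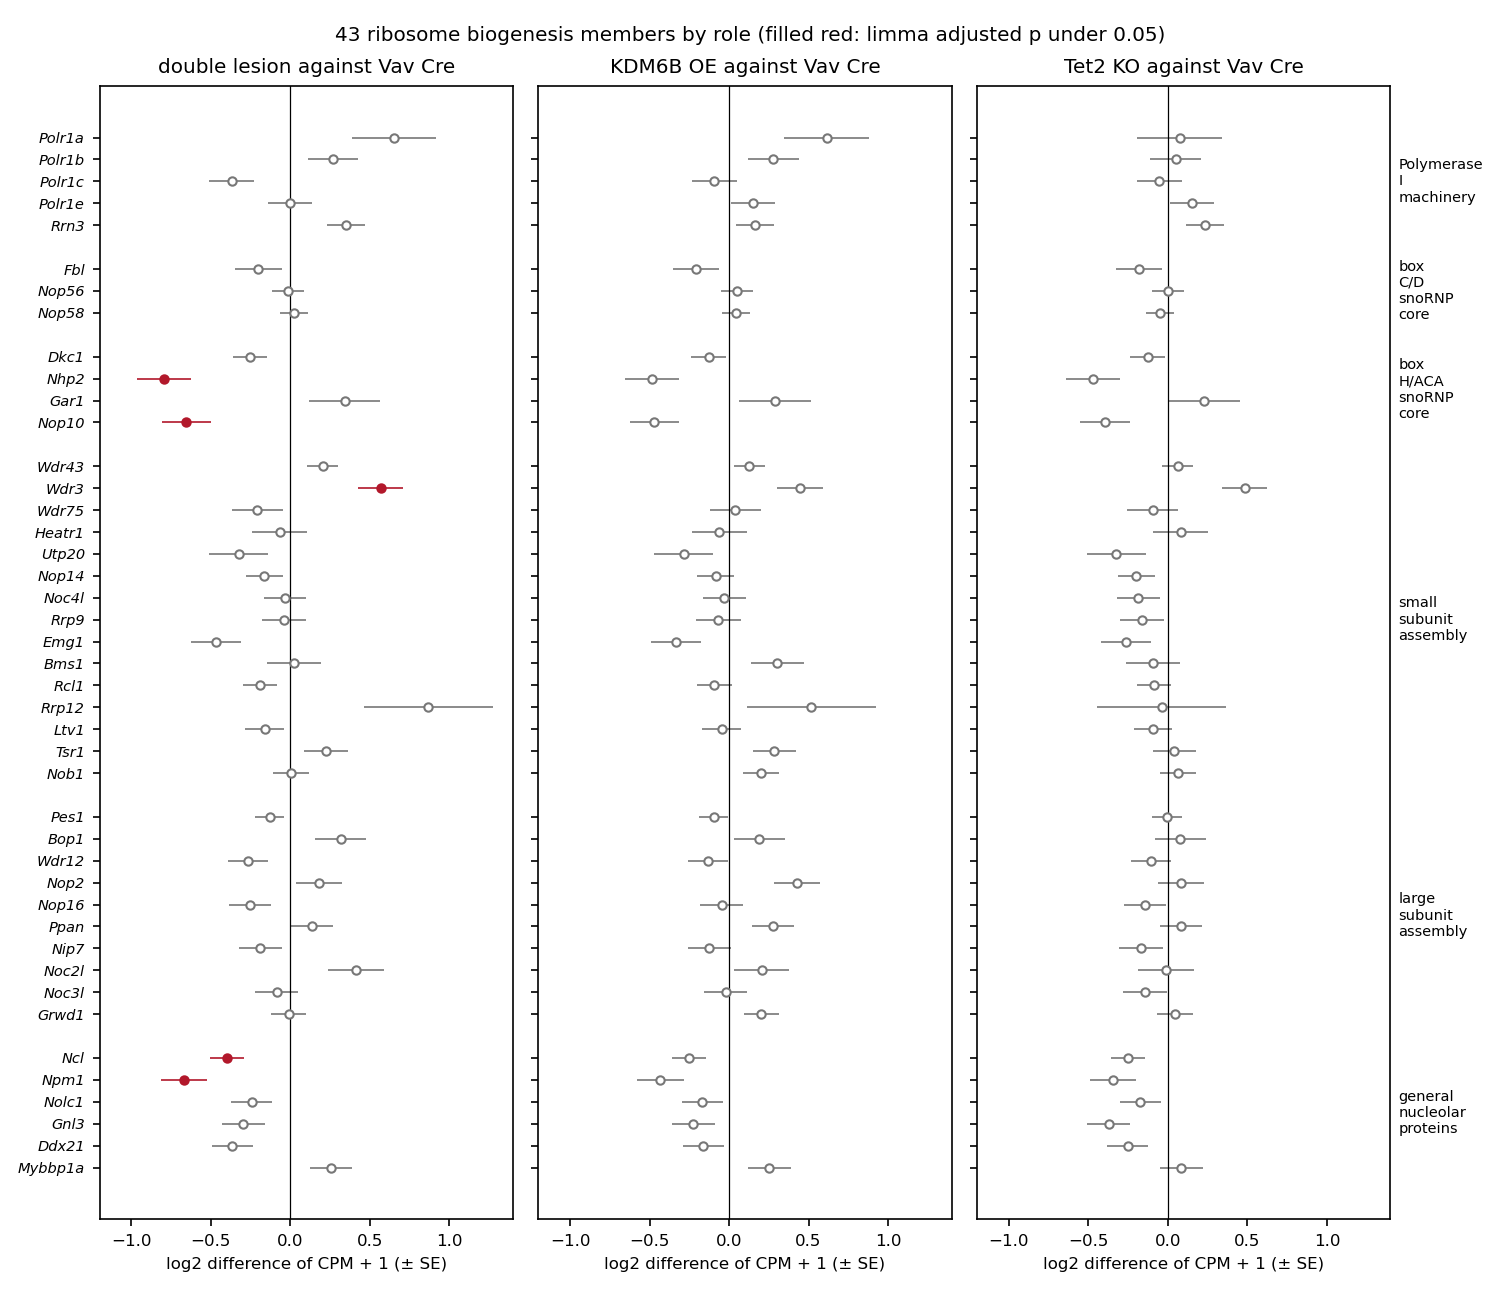
Log2 difference of each of the 43 members (points) against Vav Cre on the log2(CPM + 1) scale, by role, for the double lesion, KDM6B OE and Tet2 KO. Bars are SE. The 5 filled points passed the test in the double lesion (Nhp2, Npm1, Nop10 and Ncl lower, Wdr3 higher), and no point is filled in the other panels.

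Both lesions together were read in the double lesion against Vav Cre, where both groups carry Cre. A pair of H/ACA proteins (Nhp2, Nop10) and a pair of abundant nucleolar proteins (Npm1, Ncl) were lower, at 0.577 to 0.758 times the control. The small subunit factor Wdr3 was higher, at 1.48 times. The other 38 members did not pass the test. In limma, fitted over all 13046 tested genes with Benjamini-Hochberg adjustment and a threshold of 0.05 on the adjusted p, 1 of 43 members was called higher and 4 lower. That is 11.6% of the members, against 14.9% of all tested genes, so the members were not called at a larger share than genes in general. Of all tested genes 7.34% were called higher and 7.58% lower. The members' median log2 difference was -0.07 (16 positive and 27 negative values, against 0.05 over all tested genes), and it was 0.02 when the libraries were rescaled to equal totals, which moved the median of all genes to 0.12.

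Nhp2 (chr11:51619735-51623714, GRCm38), a small RNA-binding protein of the H/ACA core, was at 123, 147 and 152 CPM in the double lesion and at 152, 179 and 193 CPM in KDM6B OE. Tet2 KO libraries stood at 143, 210 and 178 CPM and Vav Cre libraries at 213, 313 and 216 CPM. Every double lesion library lay below every Vav Cre library, and both single lesions stood in between by their means. The log2 difference of the double lesion from Vav Cre was -0.79 ± 0.17 (SE; limma adjusted p = 0.0134).

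Nop10 (chr2:112261926-112263269), the smallest H/ACA protein, bridges the pseudouridine synthase to the guide RNA. It was at 217, 234 and 238 CPM in the double lesion and at 238, 269 and 278 CPM in KDM6B OE. Tet2 KO gave 237, 326 and 268 CPM and Vav Cre 299, 471 and 337 CPM. Here too the double lesion lay wholly below Vav Cre, and Vav Cre 2 was the highest of all 12 libraries. The difference of the double lesion from Vav Cre was -0.65 ± 0.15 (limma adjusted p = 0.0185).

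The other H/ACA proteins did not pass. Dkc1, the pseudouridine synthase itself, was at 275, 313 and 290 CPM in the double lesion, at 287, 341 and 329 CPM in KDM6B OE, at 311, 334 and 312 CPM in Tet2 KO and at 310, 400 and 340 CPM in Vav Cre (-0.25 ± 0.11 for the double lesion, limma adjusted p = 0.128). Gar1, which completes the H/ACA core, was at 52.2, 67.1 and 60.1 CPM in the double lesion, at 55.2, 58.8 and 57.8 CPM in KDM6B OE, at 48.6, 55.2 and 61.7 CPM in Tet2 KO and at 38.3, 35.0 and 76.0 CPM in Vav Cre. The Gar1 value of Vav Cre 3 was the highest of the 12, while those of Vav Cre 1 and 2 were the lowest. Its difference was 0.34 ± 0.23 (limma adjusted p = 0.318).

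Npm1 (chr11:33152287-33163206), nucleophosmin, is an abundant chaperone of the outer nucleolus that is often mutated in human acute myeloid leukaemia. It was at 536, 638 and 658 CPM in the double lesion and at 670, 719 and 764 CPM in KDM6B OE. Its values were 680, 831 and 777 CPM in Tet2 KO and 822, 1240 and 887 CPM in Vav Cre. The double lesion lay below all 9 other libraries. The difference of the double lesion from Vav Cre was -0.67 ± 0.15 (limma adjusted p = 0.0142). The mouse genome holds processed copies of Npm1, and how the authors' counting shared reads between such copies is not given in the sources used here.

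Ncl (chr1:86344719-86359400), nucleolin, binds the precursor RNA and nucleolar chromatin. It was at 1004, 1116 and 1097 CPM in the double lesion and at 1120, 1172 and 1271 CPM in KDM6B OE. Levels were 1091, 1241 and 1241 CPM in Tet2 KO and 1236, 1551 and 1472 CPM in Vav Cre. The double lesion lay below Vav Cre in every library (-0.40 ± 0.11, limma adjusted p = 0.0293). The snoRNA Snora75 lies within the annotated exons of Ncl.

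Wdr3 (chr3:100138180-100162407), a repeat protein of the small subunit processome, was at 132, 133 and 119 CPM in the double lesion and at 109, 136 and 110 CPM in KDM6B OE. The Tet2 KO libraries were at 119, 116 and 127 CPM and the Vav Cre libraries at 77.7, 74.3 and 111 CPM. Every double lesion library lay above every Vav Cre library, with Vav Cre 3 far closer to them than Vav Cre 1 and 2. The difference was 0.57 ± 0.14 (limma adjusted p = 0.0230).

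The library kit does not mark strand, so reads of genes that overlap on opposite strands cannot be told apart. Nhp2 overlaps Rmnd5b (-0.30 ± 0.20, limma adjusted p = 0.341 in the double lesion). Wdr3 overlaps Gdap2 (0.24 ± 0.20, adjusted p = 0.445) and Spag17 (-0.07 ± 0.35, adjusted p = 0.911, near 1 CPM). None of these neighbours passed. No overlapping gene was annotated for Nop10 or Npm1.

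**Figure D2:**
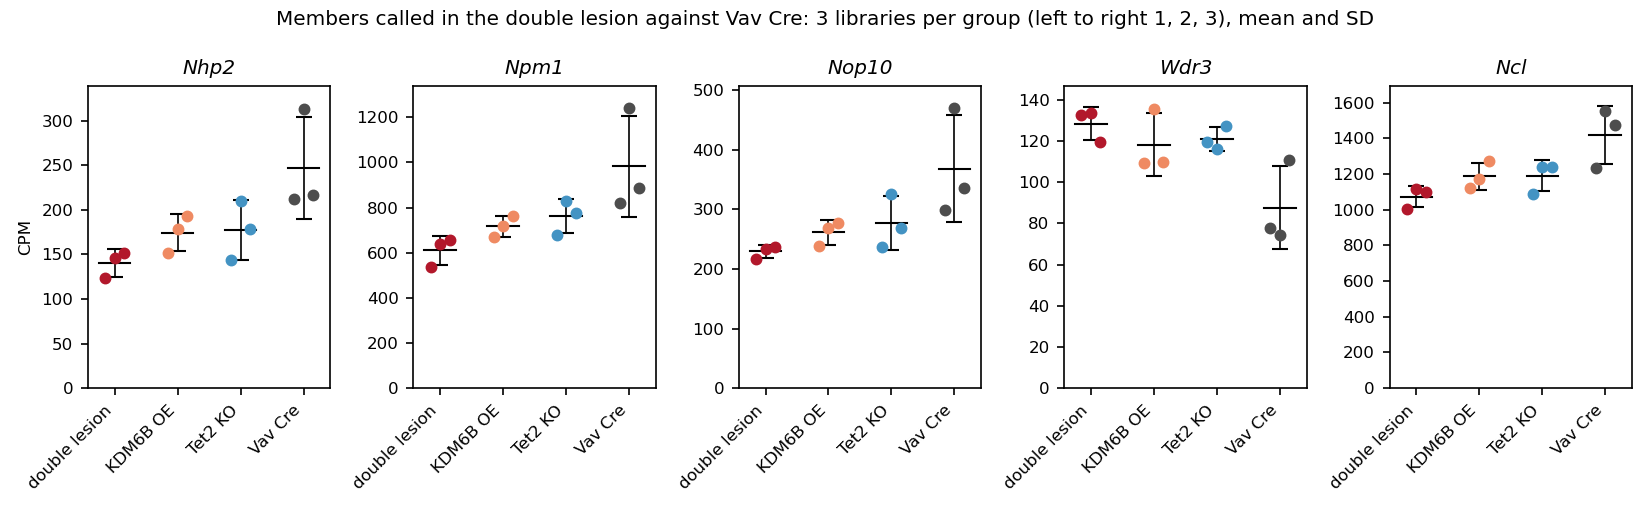
CPM in each of the 12 libraries for the 5 members that passed in the double lesion against Vav Cre, with group means and SD as bars (n = 3 per group). In Nhp2, Npm1, Nop10 and Ncl the double lesion lies wholly below Vav Cre, and in Wdr3 wholly above it. Vav Cre 2 has the highest value of all libraries for Nhp2, Npm1, Nop10 and Ncl.

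The calls depended on single libraries, as did those over all genes, which numbered 1947 with all 12 libraries. Without double lesion 1 none of the 5 passed (limma adjusted p from 0.0726 to 0.126), among 304 genes called in all. Without Vav Cre 2 only Nhp2 and Npm1 did (611 genes in all), as was the case without double lesion 2 (743 genes in all). Without Vav Cre 3 the count was 12 (6 higher and 6 lower), among 3585 genes called in all. With only the double lesion and Vav Cre in the fit, 289 genes were called in all. Of the members Nhp2 alone kept its call (adjusted p = 0.0479), and Npm1, Nop10, Wdr3 and Ncl were at 0.0638, 0.0638, 0.0798 and 0.0933. Wdr3 was also lost without Vav Cre 1 (adjusted p = 0.0604) and Ncl without double lesion 3 (0.0657), with 1616 and 831 genes called in all. edgeR on the recovered reads called the same 5 members, among 1652 genes in all. DESeq2 added Emg1, Ddx21 and Polr1c as lower and Rrn3 as higher (adjusted p from 0.0221 to 0.0485), among 2676 genes called in all.

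Within the polymerase I machinery none of 5 genes passed. Polr1a, the largest subunit, was at 87.2, 69.5 and 82.9 CPM in the double lesion, at 74.5, 83.7 and 74.1 CPM in KDM6B OE, at 59.1, 36.3 and 68.9 CPM in Tet2 KO and at 37.8, 40.7 and 82.1 CPM in Vav Cre. Vav Cre 1 and 2 lay below the double lesion and Vav Cre 3 within its range (0.65 ± 0.27, limma adjusted p = 0.107). Rrn3, which makes the polymerase competent to start, was at 59.6, 57.7 and 58.3 CPM in the double lesion, at 48.1, 50.2 and 55.5 CPM in KDM6B OE, at 57.5, 46.9 and 57.9 CPM in Tet2 KO and at 47.4, 43.2 and 46.6 CPM in Vav Cre. The double lesion lay wholly above Vav Cre, at 0.35 ± 0.12 (limma adjusted p = 0.0624), and passed with rescaling to equal totals (0.43, adjusted p = 0.0354). It was at 0.23 (adjusted p = 0.167) without the trend on coding length and GC that is described further on. Polr1b, the second-largest subunit, was at 0.27. Polr1c, which is shared with RNA polymerase III, was at -0.37 (adjusted p = 0.0908), and Polr1e, which acts with the initiation factors, was at -0.0037.

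Among box C/D proteins none of 3 passed. Fibrillarin (Fbl), the methyltransferase, was at 94.1, 121 and 119 CPM in the double lesion, at 111, 108 and 111 CPM in KDM6B OE, at 99.1, 110 and 129 CPM in Tet2 KO and at 105, 131 and 151 CPM in Vav Cre. The groups overlapped (-0.20 ± 0.15, limma adjusted p = 0.364). The scaffold proteins Nop56 and Nop58 were at -0.01 and 0.02, and over the 12 libraries their highest value was 1.23 and 1.19 times their lowest.

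In small subunit assembly 1 of 15 members passed, Wdr3. Rrp12, a factor of subunit maturation and export in yeast, was at 32.6, 38.3 and 27.8 CPM in the double lesion, at 27.6, 26.7 and 22.2 CPM in KDM6B OE, at 19.5, 9.73 and 25.4 CPM in Tet2 KO and at 15.03, 9.06 and 38.0 CPM in Vav Cre. Its control values spanned the range of all libraries but double lesion 2 (0.87 ± 0.41, limma adjusted p = 0.157), and it varied most of all members, 4.23-fold between its highest and lowest library. Heatr1, which links precursor transcription to its processing, was at 79.7, 59.8 and 62.0 CPM in the double lesion, at 63.0, 65.9 and 72.0 CPM in KDM6B OE, at 83.3, 65.6 and 74.0 CPM in Tet2 KO and at 57.8, 93.8 and 62.8 CPM in Vav Cre (-0.07 ± 0.17, adjusted p = 0.820). Emg1, a methyltransferase of the small subunit RNA, was below Vav Cre in every double lesion library without passing (-0.47 ± 0.16, adjusted p = 0.0578). Its exons overlap Lpcat3 (-0.06, adjusted p = 0.781).

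The other small subunit members lay between -0.32 and 0.22. Utp20, a processome component, was at -0.32, Wdr75 and Wdr43, which belong to the same early complex as Heatr1, were at -0.21 and 0.20, and the partners Nop14 and Noc4l were at -0.16 and -0.03. Wdr43 passed with rescaling to equal totals (0.29, limma adjusted p = 0.0381). Rrp9, which binds the U3 snoRNA, was at -0.04. The GTPase Bms1 and its partner Rcl1 were at 0.02 and -0.19. Of the late factors, Ltv1 was at -0.16, Tsr1 at 0.22 and the nuclease Nob1 at 0.01.

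None of the 10 large subunit factors passed. Pes1, Bop1 and Wdr12 form the PeBoW complex, which is needed to process the large subunit RNAs. Pes1 was at 172, 180 and 168 CPM in the double lesion, at 173, 180 and 178 CPM in KDM6B OE, at 179, 197 and 191 CPM in Tet2 KO and at 187, 175 and 208 CPM in Vav Cre (-0.13 ± 0.09, limma adjusted p = 0.357). Its partners had opposite signs, with Bop1 at 0.32 and Wdr12 at -0.27. Noc2l, which in yeast helps move pre-ribosomes out of the nucleolus, was at 0.41 (adjusted p = 0.120), and Noc3l, which binds Noc2 in yeast, was at -0.09. The RNA methyltransferase Nop2 was at 0.18, Ppan at 0.14, Grwd1, a chaperone of a ribosomal protein in yeast, at -0.01, Nip7 at -0.19 and Nop16 at -0.25.

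Of the remaining general nucleolar proteins none passed. Gnl3, nucleostemin, a GTPase abundant in stem cells, was at 200, 203 and 213 CPM in the double lesion, at 190, 224 and 234 CPM in KDM6B OE, at 172, 229 and 187 CPM in Tet2 KO and at 219, 303 and 241 CPM in Vav Cre. The double lesion lay wholly below Vav Cre (-0.30 ± 0.14, limma adjusted p = 0.151), and snoRNAs and Pbrm1 overlap its exons. The helicase Ddx21 was at -0.37 (adjusted p = 0.0682), the snoRNP chaperone Nolc1 at -0.24 and the MYB-binding protein Mybbp1a at 0.26. Over all 43 members, the double lesion lay wholly above Vav Cre for 3 and wholly below it for 7, against 16.4% of tested genes in each direction. Of the members 13 had an unadjusted p under 0.05, against 32.3% of tested genes.

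KDM6B OE was set against Vav Cre for the transgene alone, although of these groups the labels name Cre only in the control. No member passed in limma, against 0.598% of all tested genes, and 7 had an unadjusted p under 0.05 (21.6% of tested genes). edgeR called 0 members and DESeq2 2, Npm1 and Nop10, both lower. Over all genes edgeR called 78 and DESeq2 737 (367 higher, 370 lower). The members' median was -0.03, with 20 positive and 23 negative values (0.04 over all genes), and it was 0.01 with rescaling to equal totals, where the median of all genes was 0.08. The members with the smallest p were Wdr3 (0.44 ± 0.14, limma adjusted p = 0.129), Nop10 (-0.47 ± 0.15, adjusted p = 0.131), Npm1 (-0.43 ± 0.15, adjusted p = 0.137), Nop2 (0.42 ± 0.14, adjusted p = 0.139) and Nhp2 (-0.48 ± 0.17, adjusted p = 0.143). Without Vav Cre 3, 8 members passed, all higher, namely Wdr3, Polr1a, Noc2l, Rrp12, Bop1, Gar1, Nop2 and Ppan, while over all genes the calls went up to 1934 (1320 higher and 614 lower). Without Vav Cre 2, Nhp2 was at -0.30, Npm1 at -0.25 and Nop10 at -0.28.

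For Tet2 deletion alone, Tet2 KO was set against Vav Cre, with Cre in both groups. No member passed in limma, against 0.0307% of all tested genes, and edgeR and DESeq2 called 0 as well. An unadjusted p under 0.05 was found for 6 members (13.5% of tested genes). The median was -0.09, with 15 positive and 28 negative values, against 0.03 over all genes. Wdr3 was at 0.48 ± 0.14 (limma adjusted p = 0.243) and passed without Vav Cre 3 (0.66), where 307 genes were called in all. Nhp2 was at -0.47 ± 0.17 (adjusted p = 0.288), Gnl3 at -0.37 ± 0.14 (adjusted p = 0.293), Nop10 at -0.40 ± 0.15 (adjusted p = 0.311) and Npm1 at -0.35 ± 0.15 (adjusted p = 0.332). Without Vav Cre 2, Nhp2 was at -0.29, Nop10 at -0.21 and Npm1 at -0.17. The 3 comparisons with Vav Cre share its 3 libraries, so that values of the same sign in them are not independent of each other.

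Against the single lesions, no member passed in the double lesion. The labels name floxed Tet2 and Cre in the double lesion but not in KDM6B OE, so that comparison also holds any effect of Cre. Against KDM6B OE the share called among all tested genes was 0%, no member had an unadjusted p under 0.05 (5.91% of tested genes), and edgeR and DESeq2 called 0 members. The median was -0.07 with 11 positive and 32 negative values (-0.01 over all genes). Nhp2 was at -0.31 ± 0.17 (limma adjusted p = 0.906) and Npm1 at -0.24 ± 0.15 (adjusted p = 0.906). With a term for sex, read from Y chromosome transcripts, Nhp2 was at -0.13, Npm1 at -0.08, Nop10 at -0.01 and Ncl at -0.02. Against Tet2 KO 0.215% of tested genes were called, 5 members had an unadjusted p under 0.05 (10.6% of tested genes), and edgeR and DESeq2 called 0 members. These 5 were Noc2l (0.42 ± 0.17, adjusted p = 0.423), Rrp12 (0.91 ± 0.41, adjusted p = 0.464), Polr1c (-0.32 ± 0.14, adjusted p = 0.464), Npm1 (-0.32 ± 0.15, adjusted p = 0.467) and Polr1a (0.58 ± 0.27, adjusted p = 0.469). The median was -0.01, and 0.03 with rescaling, where the median of all genes was also 0.03.

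The interaction term compares the double lesion with the sum of the single lesions. Since the KDM6B OE label names no Cre, it also holds any effect of Cre. No member passed or had an unadjusted p under 0.05 in limma (0% and 4.43% of tested genes), edgeR and DESeq2 called 0 members, and the smallest adjusted p was 0.999. Values ran from -0.36 ± 0.20 for Wdr3 to 0.39 ± 0.57 for Rrp12, with 21 positive and 22 negative. For Nhp2, Npm1 and Nop10 the larger distance of the double lesion from Vav Cre than of either single lesion was therefore not shown to differ from the sum of both.

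**Figure D3:**
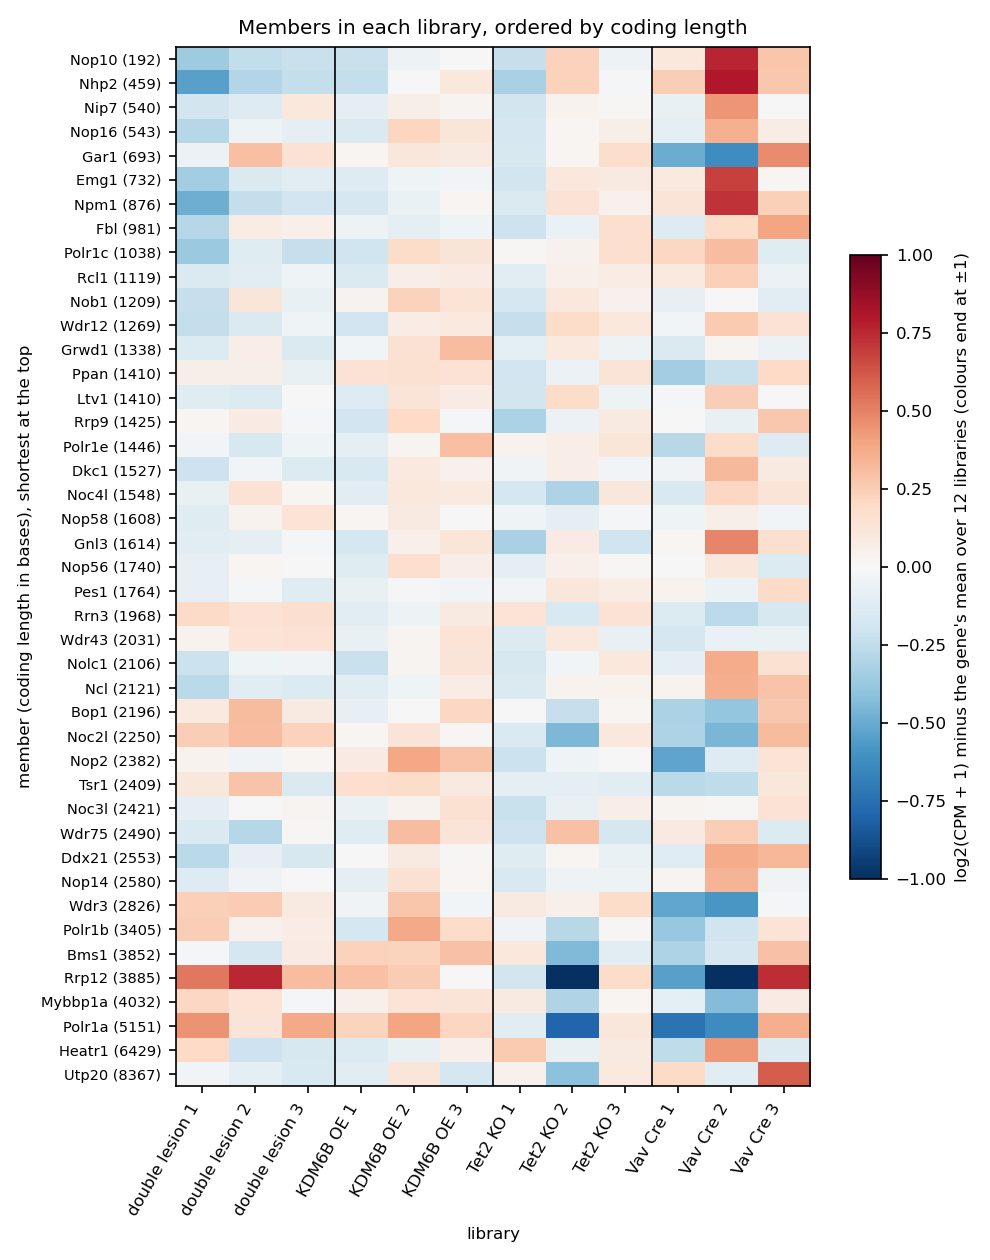
Deviation of each member (rows, by coding length, shortest at the top) from its own mean over the 12 libraries (columns) on the log2(CPM + 1) scale, with colours ending at ±1. Vav Cre 2 holds the highest value of 18 members and the lowest of 7, and Rrp12, Polr1a and Gar1 are low in Vav Cre 1 and 2 but not in Vav Cre 3.

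Single libraries carried much of the variation of the members. Vav Cre 2 held the highest of the 12 values for 18 members and the lowest for 7, and Vav Cre 3 held the highest for 8. Double lesion 1 held the lowest for 13 members. Over all listed genes, the deposited values summed to the most in Vav Cre 2 (1076730 CPM) and to the least in double lesion 1 (947374 CPM). The part of these totals in the extremes was not tested. The members' values varied with coding length. For each member the difference between the double lesion and Vav Cre was set against its coding length, with a Spearman rho of 0.465 over the 43 members and of 0.349 over 11955 coding genes. As a description, the 15 members with a coding length of at most 1410 bases had a median of -0.20 and the 15 with at least 2250 bases one of 0.18, with 12 of the short ones negative and 9 of the long ones positive. The longest members, Utp20 (-0.32) and Heatr1 (-0.07), and the short Gar1 (0.34) lay the other way. Over all coding genes the same lengths gave -0.09 and 0.22. Within single libraries, members' deviations from their means had a rho with length of 0.690 in double lesion 1, of -0.600 in Tet2 KO 2, of -0.395 in Vav Cre 1 and of -0.487 in Vav Cre 2. Over all coding genes these libraries gave 0.339, -0.319, -0.220 and -0.421. For the members the other libraries lay between -0.068 (Tet2 KO 3) and 0.463 (Tet2 KO 1). For all coding genes they lay between 0.0037 (Vav Cre 3) and 0.325 (Tet2 KO 1). The points share libraries, so no p is given. Nop10, Nhp2 and Npm1 have coding lengths of 192, 459 and 876 bases, while Ncl and Wdr3 have 2121 and 2826.

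A trend on coding length and GC content was also removed from each library, as an alternative that was added once the data had been seen. This setting used only the tested genes with a coding length (11955), a smaller set than that of the main test. Then 6 members were lower and none higher in the double lesion against Vav Cre, while over all genes in this setting 1221 were lower and 625 higher. Nhp2 (-0.66, limma adjusted p = 0.00558), Npm1 (-0.55) and Ncl (-0.52) kept their calls, and Ddx21, Polr1c and Pes1 were added. Nop10 was then at -0.22 (adjusted p = 0.133) and Wdr3 at 0.41 (adjusted p = 0.0504). The members' median was -0.22, with 10 positive and 33 negative values, against a median of -0.03 over all genes in this setting.

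**Figure D4:**
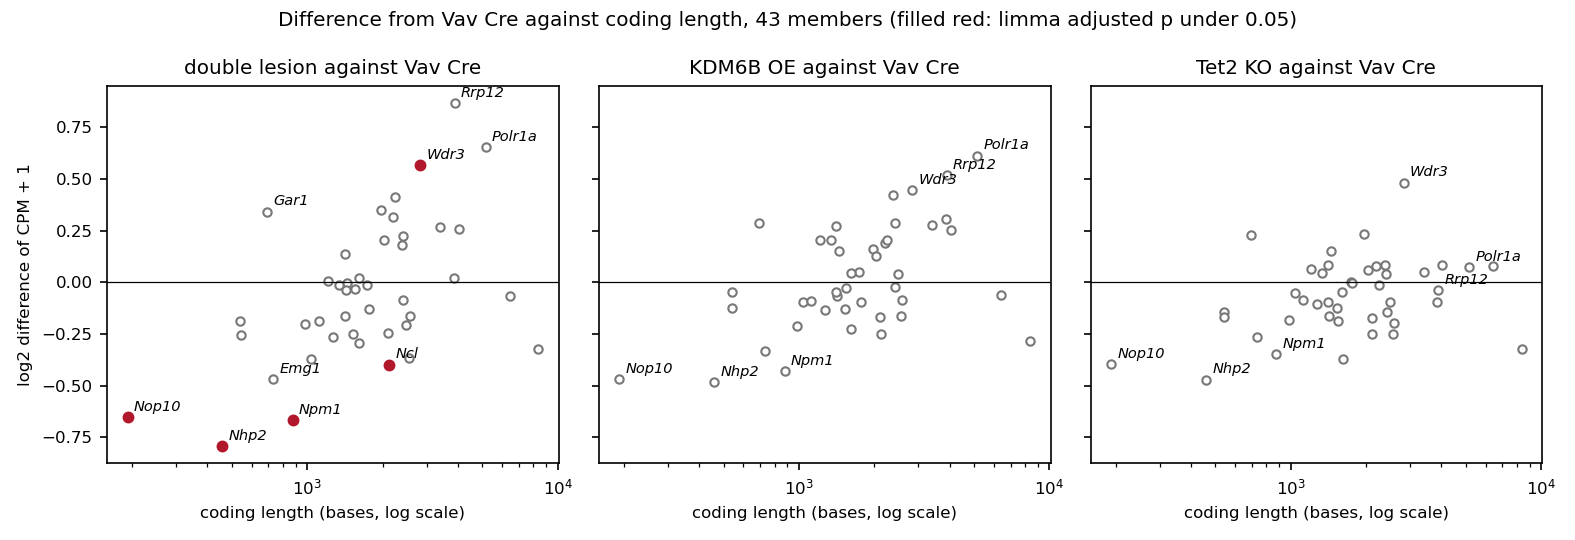
Log2 difference of each member against its coding length in bases (log axis), for the double lesion, KDM6B OE and Tet2 KO against Vav Cre. In the double lesion the Spearman rho over the 43 members is 0.465. Nop10 and Nhp2 lie low and Rrp12 and Polr1a high, but the longest members, Utp20 and Heatr1, are below 0 and the short Gar1 is above it.

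Other lists also held genes that differed between the groups, and their part in the results was not tested. In the double lesion against Vav Cre, where 14.9% of all tested genes were called, 15 of 16 markers of G2 and M phase fell. Their summed level was 1922 to 2817 CPM in the double lesion against 4400 to 5193 CPM in Vav Cre. Of 12 immediate early genes 10 rose, with sums of 6667 to 10323 CPM against 1186 to 2141 CPM. Lineage markers that the LSK gate should exclude summed to 42.8 to 59.1 CPM against 26.0 to 32.9 CPM (6 genes), and T cell markers to 6.94 to 8.21 CPM against 2.08 to 3.43 CPM (5 genes). Both gate genes together stood at 657 to 1009 CPM in the double lesion against 463 to 619 CPM in Vav Cre. Sums of neutrophil granule, monocyte, B cell, erythroid and mast cell markers overlapped between both groups, but single markers passed in limma, all of them higher. Among B cell markers Igll1 rose (1.96 ± 0.51, adjusted p = 0.0251). The B cell factor Pax5 was at 0 in all 3 Vav Cre libraries and at no more than 0.522 CPM in the double lesion. Of neutrophil granule markers 3 of 9 rose (S100a8, S100a9 and Ngp, at 2.06 to 2.18) and of genes listed for mast cells and basophils 1 of 7 (Gata2, 0.67). Gata2 alone does not show the presence of such cells. No erythroid marker of 4 and no T cell marker of 2 tested passed in limma, with smallest adjusted p of 0.228 and 0.0925. Transcripts of the Y chromosome were found in 4 of the 12 libraries. With a term for them the same 5 members were called, among 1354 genes in all. The 4 Y chromosome genes read had a median log2 difference from Vav Cre of 1.87 in the double lesion, -1.97 in KDM6B OE and -0.10 in Tet2 KO. Sex was thus not spread evenly over the groups.

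Other genes of the pathway were read from a separate list, also chosen with earlier results known. Of 99 further ribosome biogenesis genes tested, 1 was higher and 8 were lower in the double lesion against Vav Cre, with a median of -0.11. These 9 of 99 compare with 14.9% of all tested genes. None of the 99 passed with only these groups fitted or without double lesion 1 or 2 (289, 304 and 743 genes called in all). Without Vav Cre 2, 1 did (611 in all), without double lesion 3, 2 (831 in all), and with the sex term 3 (1354 in all). Without 1 KDM6B OE library 4 to 6 passed (1348 to 1508 in all) and without Tet2 KO 3, 5 (1585 in all). DESeq2 called 15 (2 higher, 13 lower), among 2676 genes in all. Without Vav Cre 3, 12 were higher and 15 lower, among 3585 calls over all genes. In the other 5 comparisons limma and edgeR called 0 of them and DESeq2 1, in the double lesion against Tet2 KO (143 genes in all). An unadjusted p under 0.05 in limma was found for 18 of the 99 in KDM6B OE and 13 in Tet2 KO against Vav Cre (21.6% and 13.5% of tested genes). It was found for 0 and 4 in the double lesion against KDM6B OE and Tet2 KO (5.91% and 10.6%), and for 3 in the interaction (4.43%). Without Vav Cre 3, 12 were higher and 2 lower in KDM6B OE against Vav Cre, among 1934 genes called in all. In Tet2 KO against Vav Cre 4 were then higher, among 307 genes called in all. Exosc9 (-0.51 ± 0.12, limma adjusted p = 0.0198) and Exosc3 (-0.50 ± 0.13, adjusted p = 0.0267), subunits of the RNA exosome that trims precursor RNA, fell. So did Rbm28 (-0.48 ± 0.12, adjusted p = 0.0207), a nucleolar RNA-binding protein. Pelp1, a coregulator that also acts in large subunit maturation, rose (0.63 ± 0.18, adjusted p = 0.0324). Without the trend on coding length and GC 17 of the 99 were lower and none higher, while over all genes with a coding length 1221 were lower and 625 higher. With rescaling to equal totals 5 of the 99 were higher and 5 lower, against 1286 higher and 763 lower over all genes.

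MYC is a known activator of ribosome biogenesis genes. Myc itself was at 767, 923 and 870 CPM in the double lesion, at 721, 782 and 734 CPM in KDM6B OE, at 556, 677 and 772 CPM in Tet2 KO and at 523, 490 and 670 CPM in Vav Cre. It was higher in the double lesion than in Vav Cre (0.61 ± 0.14, limma adjusted p = 0.0155), where its libraries did not overlap. The call ended once the trend on coding length and GC was taken out (0.32, adjusted p = 0.0854), without double lesion 2 or Vav Cre 2, and with only these groups fitted. Mycl rose to 4.63 ± 1.26 CPM in the double lesion, against 0.460 ± 0.448 CPM in Vav Cre (SD, n = 3 each; 1.96 ± 0.34, adjusted p = 0.00580). Mycn was at 0.59 ± 0.28 (adjusted p = 0.171) and Max, the common partner, at 0.25 (adjusted p = 0.666). Of the 9 members with an E-box in the promoter window, Rrn3 (0.35), Mybbp1a (0.26), Wdr43 (0.20), Tsr1 and Nop2 were positive. Utp20 (-0.32), Ltv1 (-0.16), Pes1 (-0.13) and Grwd1 were negative. None of the 9 passed in the double lesion against Vav Cre, where 14.9% of all tested genes did. Whether MYC had a part in these values was not tested.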

How the data were processed

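Poly(A) RNA of sorted LSK cells was made into libraries with an oligo-dT template-switching and tagmentation kit from 10 to 20 ng of total RNA, per the labels' protocols. The submitters' processing notes name the build mm10 and the tools edgeR 3.8.6, HTSeq 0.6.0 and TopHat2 2.0.10. For the annotation and strand setting, nothing is given in the sources used here. Values in the deposited table are a signal, namely CPM after the authors' edgeR scaling. Each value gave back whole reads (100% of values within 1e-06 reads), no gene had fewer than 10 reads in all, and libraries held 21935022 to 26263370 reads. Reads carry no molecular identifiers. The chi-square per gene between replicates was 18.3 to 94.2, so no 2 libraries were alike within counting error.

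The test was limma 3.58.1 (R 4.3.3, empirical Bayes with a mean trend) on log2(CPM + 1). It covered the 13046 genes that exceeded 1 CPM in 3 or more libraries and left out 2320. The model had 1 mean per group and 8 residual degrees of freedom. p-values were adjusted by Benjamini-Hochberg within a comparison. Differences on this scale understate changes of low genes. The recovered reads were tested with edgeR 4.0.16 and DESeq2 1.42.0 as alternatives. Further alternatives were another filter, a pseudocount of 0.25, rescaling to equal totals, only the compared groups, a replicate block, a sex term and each library left out. Some B cell and monocyte marker results are not reported here. For Tet2 KO and Vav Cre all 3 pairs of libraries with the same number deviated together (Pearson's r 0.30 to 0.34), while for the double lesion and Vav Cre they did not (-0.15 to 0.32). Coordinates and coding lengths come from GENCODE M21 (GRCm38), in which 14742 of the 15366 gene symbols were found, all 43 members among them. The scripts were tested on simulated data. The design had foreseen plain CPM, and its test was kept.

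The members and lists were chosen with earlier results of these data known. Values per library are given for members called in any comparison, for the 3 highest and 3 lowest differences against Vav Cre in each comparison and for 7 defining members. Of the wider lists at most 4 called genes are named, and Myc, Mycn and Max always.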

Additional observations from a re-analysis of the deposited data

How the results depend on the processing

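For the double lesion against Vav Cre, 5 members were called. The count was 1 when the fit held only the compared groups, 9 with DESeq2 (2 higher, 7 lower), 3 without Vav Cre 2 and Tet2 KO 2 (an alternative chosen after seeing the data) and 0 to 12 with each library left out. It was 0 without double lesion 1, 2 without double lesion 2 or Vav Cre 2, and 12 without Vav Cre 3. For KDM6B OE against Vav Cre the count of 0 became 2 with DESeq2, which called 737 genes in all. It was 0 to 8 with each library left out, against 22 to 1934 over all genes. For Tet2 KO against Vav Cre it was 0 to 1, against 1 to 307 over all genes. The members' median for the double lesion against Vav Cre was -0.22 once the trend on coding length and GC was taken out, and -0.14 to -0.03 with each library left out. With rescaling to equal totals this median was slightly above 0. That setting called the same 5 members with Rrn3 (0.43, limma adjusted p = 0.0354) and Wdr43 (0.29, adjusted p = 0.0381) added as higher. Ncl was then at -0.31, and 2049 genes were called in all. No call changed direction under any alternative run, and the causes of these shifts were not tested. The other comparisons had no member called under any alternative.

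With a replicate block, 10 members were called in the double lesion against Vav Cre (2 higher, 8 lower), namely the same 5 with Emg1, Ddx21, Rrn3, Dkc1 and Wdr12 added (adjusted p from 0.0271 to 0.0497). Calls over all genes rose as well, to 2699 with the block, against 1947 without it. Over 18 pairs of libraries that share a number, deviations correlated at -0.15 to 0.39, above 0.1 in 10 pairs, and 5 of 12 libraries correlated best with their own number. The labels do not say that the numbers pair samples. For Tet2 KO against Vav Cre the block called no member and 1 gene in all, against 4 without it.

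Over all genes the double lesion had 1947 calls (958 higher, 989 lower). With rescaling to equal totals the split was 1286 higher and 763 lower. Without the trend on coding length and GC it was 625 and 1221, over genes with a coding length only. The count was 289 when only these groups were fitted and 2676 with DESeq2. It was 304 without double lesion 1, 743 without double lesion 2, 611 without Vav Cre 2 and 3585 without Vav Cre 3. Without Vav Cre 2 and Tet2 KO 2 it was 1163. A member's value rested on 198 to 33907 reads, and with 3 libraries a group the spread between libraries limits what can be called.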

Other observations

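Small nucleolar RNAs are mostly cut from the introns of host transcripts, some of which code for no protein. Of 11 host RNAs tested in the double lesion against Vav Cre, Snhg4 fell to 9.62 ± 1.58 CPM in the double lesion, against 17.4 ± 4.72 CPM in Vav Cre (SD, n = 3 each; -0.77 ± 0.24, limma adjusted p = 0.0453). Gas5, a growth-arrest transcript that hosts several box C/D snoRNAs, was at 599 ± 18.8 CPM in the double lesion and at 464 ± 92.8 CPM in Vav Cre, without passing (0.39, adjusted p = 0.0579). Of 6 genes of telomerase and H/ACA assembly, Ruvbl2, an ATPase that helps assemble snoRNPs, fell to 205 ± 23.7 CPM in the double lesion, against 289 ± 28.0 CPM in Vav Cre (-0.50 ± 0.12, adjusted p = 0.0191). In these lists 1 of 11 and 1 of 6 genes were called, against 14.9% of all tested genes. Both lists were put together after the first results were known.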
